A study of Arabidopsis thaliana with 9 samples.

Results

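The 7 Arabidopsis thaliana genes described here code for enzymes of stress and xenobiotic detoxification: the UDP-glycosyltransferases UGT73B1, UGT73B2, UGT73B3 and UGT73B5, the tau class glutathione transferases GSTU22 and GSTU25, and the methionine sulfoxide reductase MSRB8. They are 7 of 16548 genes that have a probe set naming that gene alone, and each of the 7 has 1 such probe set. They were selected on their measured differences from VISUAL on these same arrays, so their changes against VISUAL are given as a description, without a test. The standard errors and intervals printed with those changes do not allow for this choice, and the folds may be overstated.

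Plants dispose of foreign and reactive compounds in steps. UDP-glycosyltransferases attach a sugar to small molecules such as phenolics, and glutathione transferases join the tripeptide glutathione to electrophiles, after which the products can be stored in the vacuole. Methionine sulfoxide reductases act on proteins instead and return oxidised methionine to its reduced form. Many genes of these families respond to xenobiotics, reactive oxylipins, oxidative stress and pathogens, in part through TGA transcription factors, and are used as markers of such stress.

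Transcript levels came from 9 one-colour Affymetrix arrays of cotyledons of ecotype Col-0, all wild type. All are labelled as taken 96 hours after induction of companion cells (CC), the nucleated partners of phloem sieve elements. Per the labels, cotyledons of seedlings grown for 6 days were cultured for 48 hours with the auxin 2,4-D at 1.25 mg per litre, the cytokinin kinetin at 0.25 mg per litre and bikinin at 10 µM, an inhibitor of the GSK3 kinases of brassinosteroid signalling, before the transfer to CC medium. The 3 groups of 3 arrays are labelled as inducing CC differentiation strongly (CC-S), moderately (CC-M) or not (VISUAL). The labels give 1 treatment text for all of them and do not state what set their media apart. That shared text thus gives the 96 hours after induction and the CC medium for VISUAL too. Nothing says that the 3 samples of a group were separate cultures, so the spread between them may be technical.

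Each array gave a deposited log2 signal for 38408 probe sets, with array medians of 4.71 to 4.90, and the number of arrays limits the precision. Markers of cell types were listed with earlier results of these data known. The companion cell marker AT3G12730 was 8.25-fold higher in CC-S and 4.35-fold higher in CC-M than in VISUAL (limma adjusted p = 0.000222 and 0.00239). SWEET13, the other one measured, was at 0.03 and -0.10 (adjusted p = 0.962 and 0.866). The remaining 8 of the 10 companion cell markers and all 6 sieve element markers were not analysed here. The phloem parenchyma gene SWEET11 rose by 2.33 in CC-S (adjusted p = 0.0101) and was at 1.31 in CC-M (0.131; called without VISUAL replicate 4, 0.0171). Of the xylem markers, 2 of 3 measured were called lower in both groups: the xylem wall gene IRX15 fell by 1.91 in CC-S and by 1.51 in CC-M (adjusted p = 0.00586 and 0.0268); its CC-M call ended without CC-M replicate 3 or 4 or VISUAL replicate 3 (adjusted p up to 0.0967). The other was GUT2, at -1.03 and -0.89 (adjusted p = 0.0125 and 0.0352), not called in CC-S without CC-S replicate 4 (0.0528), nor in CC-M without CC-M replicate 3 or 4 or VISUAL replicate 3 or 5 (up to 0.116). All 5 measured procambium and cambium markers had positive differences, from 0.50 to 0.77 in CC-S and from 0.10 to 0.83 in CC-M. Of these, 2 were called higher in CC-S and 0 in CC-M. MOL1 rose by 0.62 and LHW by 0.50 in CC-S. The LHW call ended without any of 5 single arrays (adjusted p up to 0.11: CC-M replicate 4, CC-S replicate 3 or 4, VISUAL replicate 4 or 5). CLE41, CLE44 and AT4G28650, named after their values were seen, were not called. Without VISUAL replicate 5 CLE41 was called in both groups. In CC-S CLE44 was called without VISUAL replicate 4 and AT4G28650 without CC-S replicate 5. These marker counts stand beside 9.07% of probe sets called lower and 10.1% higher in CC-S, and 5.15% and 6.49% in CC-M. By limma 0 of 3 mesophyll and 0 of 3 epidermis and guard cell markers were called in either comparison against VISUAL, which says little for so few genes. Of these the stomatal factor gene FMA was nearest, at -0.46 in CC-S (adjusted p = 0.064), and was called there in 7 of 17 alternative settings, among them median centring, quantile normalization and leaving out CC-M replicate 3 or VISUAL replicate 3 (adjusted p from 0.0076 to 0.191 over all settings). The mesophyll gene LHCB4.1, named after its value was seen and at -0.24 in CC-S, was called without VISUAL replicate 5 (0.0275). Some markers of other cell types thus differed between the groups, and their part in the changes below was not tested. Fewer cells of a type and less RNA per cell cannot be told apart in bulk samples.

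The glycosyltransferase UGT73B2 (AT4G34135), known to glucosylate flavonols, had log2 signals of 9.17, 8.96 and 9.02 in VISUAL, 7.44, 7.59 and 7.51 in CC-M, and 7.89, 7.60 and 7.24 in CC-S (replicates 3, 4 and 5). Every CC-M and CC-S value lay more than 1 log2 unit below every VISUAL value, and CC-S spread more widely than CC-M. The difference of means was -1.54 ± 0.15 (SE, n = 3 per group) for CC-M and -1.48 ± 0.15 (SE, n = 3 per group) for CC-S, or 2.90-fold and 2.78-fold lower.

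UGT73B3 (AT4G34131), a relative with a known part in resistance to bacterial infection, had log2 signals of 7.48, 7.22 and 7.63 in VISUAL, 6.21, 6.53 and 6.46 in CC-M, and 6.22, 5.91 and 6.07 in CC-S. It was 2.06-fold lower in CC-M (95% interval 1.65 to 2.57) and 2.59-fold lower in CC-S (2.08 to 3.23). All VISUAL values lay above the rest. Alone among the 4 UGT73B genes its mean was lower in CC-S than in CC-M, where the highest CC-S value just overlapped the lowest CC-M value.

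UGT73B1 (AT4G34138) had log2 signals of 7.31, 7.27 and 7.64 in VISUAL, 6.09, 6.32 and 6.61 in CC-M, and 6.71, 6.62 and 6.58 in CC-S. All CC-M and CC-S values were below all VISUAL values, and the CC-S values lay close together, with an SD of 0.07 (n = 3). The gene was 2.09-fold lower in CC-M (95% interval 1.65 to 2.65) and 1.70-fold lower in CC-S (1.35 to 2.16).

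UGT73B5 (AT2G15480), which like UGT73B3 is known from responses to infection and to redox stress, had log2 signals of 7.11, 7.57 and 7.51 in VISUAL, 6.27, 6.57 and 6.30 in CC-M, and 6.98, 6.63 and 6.05 in CC-S. Its groups came closest to each other: CC-S replicate 3 lay 0.127 below VISUAL replicate 3. The differences were -1.02 ± 0.23 (SE, n = 3 per group) for CC-M and -0.84 ± 0.23 (SE, n = 3 per group) for CC-S. Leaving out single arrays moved the CC-S difference between -1.06 and -0.59.

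The mean changes of both glutathione transferases were larger in size than those of the 4 glycosyltransferases. GSTU25 (AT1G17180), whose product is known to conjugate the explosive TNT, had log2 signals of 7.50, 7.37 and 7.51 in VISUAL, 3.96, 3.77 and 3.74 in CC-M, and 3.44, 3.44 and 3.74 in CC-S. No array came within 3 log2 units of the other side, and replicates of each group lay close together. The gene was 12.4-fold lower in CC-M (95% interval 10.1 to 15.2) and 15.1-fold lower in CC-S (12.4 to 18.5), the fall of rank 9 and of rank 10 among the 38408 probe sets.

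GSTU22 (AT1G78340) had log2 signals of 5.38, 4.39 and 4.80 in VISUAL, 3.03, 2.52 and 3.13 in CC-M, and 3.11, 2.56 and 3.23 in CC-S. The groups CC-M and CC-S lay on top of each other and both lay below VISUAL. The gene was 3.90-fold lower in CC-M (95% interval 2.45 to 6.21) and 3.70-fold lower in CC-S (2.32 to 5.88).

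The reductase gene MSRB8 (AT4G21840) had log2 signals of 5.95, 7.01 and 6.62 in VISUAL, 3.23, 2.82 and 2.63 in CC-M, and 3.62, 1.99 and 3.11 in CC-S. It had the widest spread of the 7 genes, with an SD of 0.83 in CC-S (n = 3), where replicate 4 was the low array. The groups still lay 2.72 apart for CC-M and 2.33 apart for CC-S at their nearest values. The gene was 12.4-fold lower in CC-M (95% interval 6.40 to 24.0) and 12.3-fold lower in CC-S (6.34 to 23.8).

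**Figure D1:**
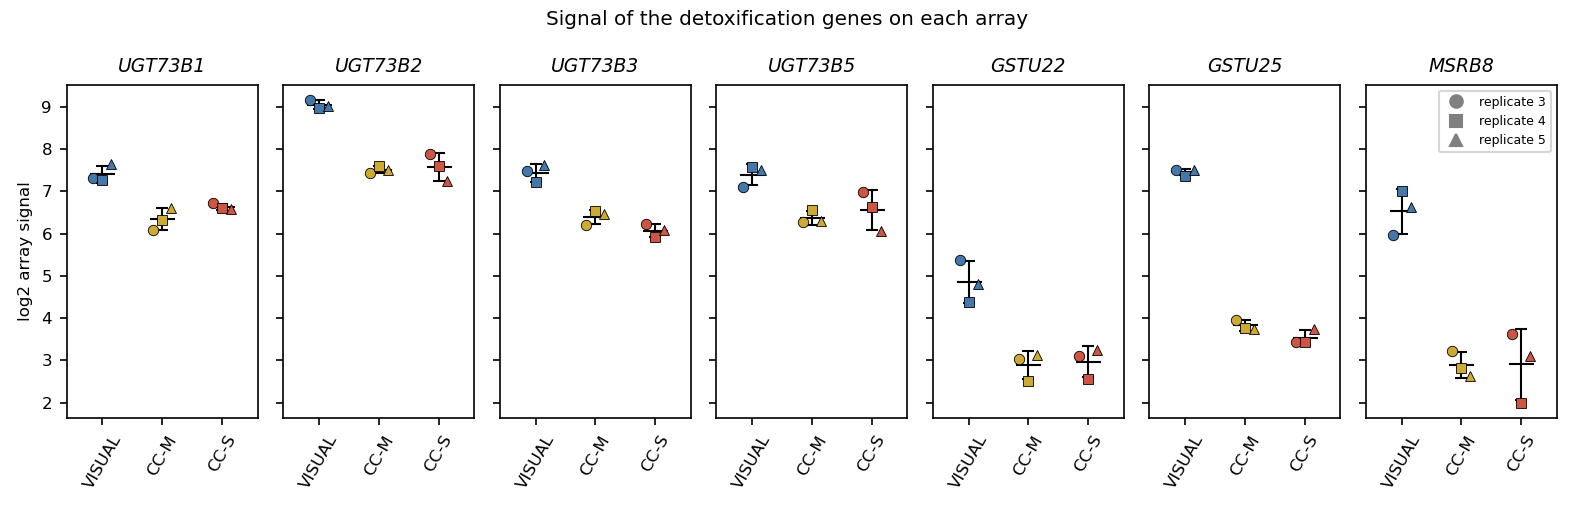
Log2 array signal (vertical axis) of each of the 7 genes in VISUAL, CC-M and CC-S; each point is 1 array, its shape the replicate number, and the black bar is the group mean with its SD (n = 3). In each panel the VISUAL points lie above all other points, and the CC-M and CC-S points overlap or nearly meet; heights of different genes are not comparable, since each has its own probes.

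For the genes with the larger falls, the low side lay near the dim end of the array. The CC-S mean of MSRB8 was at or above the mean signal of 21.3% of probe sets and that of GSTU22 of 22.3%, and GSTU25 stood at 31.6%, whereas the 4 UGT73B genes stood at 64.6% to 80.5%. The table holds no detection call, so it cannot be said whether these 3 transcripts were above background in CC-M and CC-S, and their folds rest on these dim signals.

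All 7 genes were lower than VISUAL with no overlap in both groups, as their choice fixed. Over all probe sets, 15.4% were lower without overlap in CC-S and 12.9% in CC-M, and 9.07% and 5.15% were called lower, where a call is a limma p adjusted over all probe sets under 0.05. The median change of the 7 genes was -1.48 in CC-S and -1.54 in CC-M, beside 0.02 for all probe sets in both. Since the 3 VISUAL arrays serve both comparisons, these values are set side by side and are not independent of each other.

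Setting CC-S against CC-M addresses whether these genes differ between the stronger and the moderate induction. None of the 7 genes was called by limma (adjusted p from 0.366 to 0.994), where 0.0208% of all probe sets were called, so the count itself says little about these genes. It uses the same CC-S and CC-M arrays that entered the choice. The intervals are more informative: UGT73B2 differed by 0.06 (95% interval -0.28 to 0.40), GSTU22 by 0.08 (-0.59 to 0.75), UGT73B5 by 0.18 (-0.35 to 0.70) and UGT73B1 by 0.30 (-0.045 to 0.64). GSTU25 differed by -0.29 (-0.58 to 0.0046) and UGT73B3 by -0.33 (-0.65 to -0.015), the 1 gene with an unadjusted limma p under 0.05 (0.0423). Of all 38408 probe sets 4935 had such a p, so this count too says little about the 7 genes. For MSRB8 the difference was 0.01 with an interval of -0.94 to 0.97, so a change of nearly 2-fold in either direction was not excluded.

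The 7 genes thus had 5 differences above 0 and 2 below, with a median of 0.06. Without CC-S replicate 3 that median was -0.10, and without CC-S replicate 5 it was -0.05. For GSTU25 all 3 CC-S values lay below all CC-M values, by 0.004 at the nearest, and for the other 6 genes the groups overlapped. The share of all probe sets without overlap between CC-S and CC-M was not counted. No difference was called after adjustment, and these data do not show that the levels were equal.

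**Figure D2:**
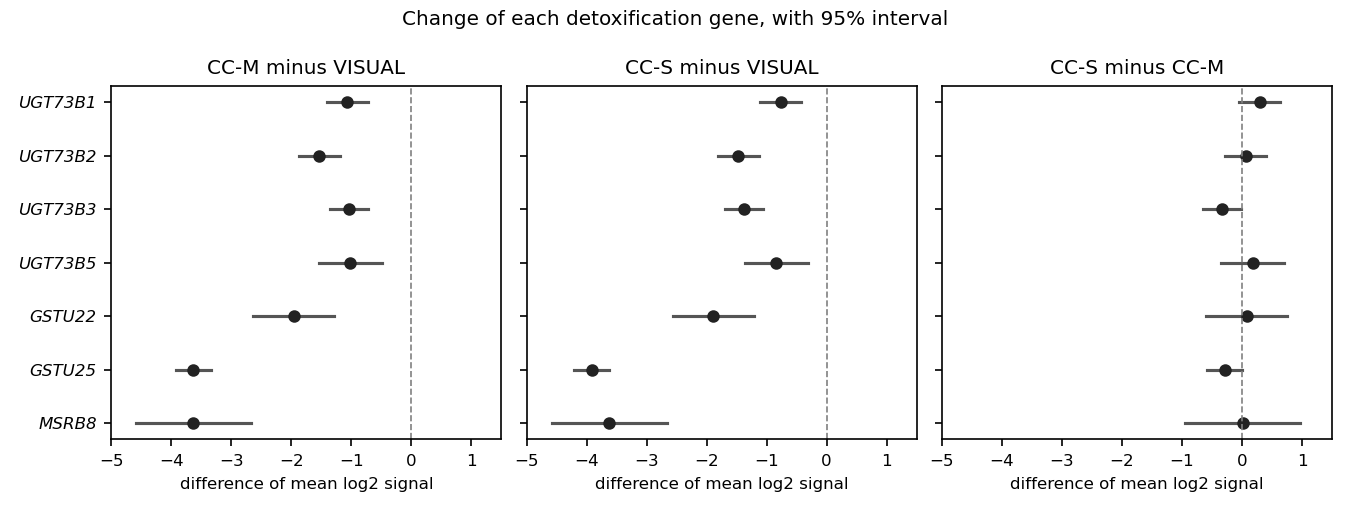
Difference of mean log2 signal (horizontal axis) for each of the 7 genes in the 3 comparisons; points are estimates and lines 95% intervals from the limma fit on 9 arrays. Against VISUAL the points run from -0.77 for UGT73B1 to -3.92 for GSTU25, both in CC-S, and between CC-S and CC-M they lie from -0.33 to 0.30. The intervals against VISUAL do not allow for the choice of the genes on these arrays.

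Within groups the 7 genes did not rise and fall as a block. Over the 21 pairs of genes, deviations of the 9 arrays from their group means correlated with r from -0.76 to 0.71 and a median of 0.09; the points share arrays and only 9 exist, so this is a description. UGT73B2 and UGT73B5, which gave the highest of these (0.71), both had CC-S replicate 3 as the highest CC-S array and replicate 5 as the lowest. UGT73B5 and GSTU25 gave the lowest. Averaged over the genes, CC-S replicate 3 was 0.25 above and CC-S replicate 4 was 0.21 below the CC-S mean, and the other 7 arrays deviated by at most 0.085.

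Several of these genes sit in tandem runs of relatives, which the RefSeq gene table of assembly TAIR10.1 shows; it is used here for gene order alone, since no build is stated for the arrays. UGT73B3, UGT73B2 and UGT73B1 lie side by side on chromosome 4, and all 3 were lower. Further along, AT4G34140 and AT4G34150 were also called lower in CC-S, at -0.25 and -0.59 (limma adjusted p = 0.0253 and 0.0046). In CC-M they were at -0.21 and -0.18 and were not called (0.078 and 0.342). UGT73B5 on chromosome 2 is followed by UGT73B4, and there the signals parted: UGT73B4 had log2 differences of 0.56 in CC-S and 0.35 in CC-M (limma adjusted p = 0.0544 and 0.271). Its CC-S value was near the threshold and was called in 5 of 17 alternative settings (adjusted p from 0.0021, without VISUAL replicate 4, to 0.16). In CC-M it was called without that same array (0.0119). In the gene table the UGT73B5 locus overlaps that of UGT73B4, so how far their probes read each other's transcripts is uncertain. UGT73B3 overlaps LEJ1 and a non-coding locus, and UGT73B1 overlaps AT4G34139, none of which was analysed here.

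GSTU22 lies on chromosome 1 in a run with GSTU23, GSTU21 and GSTU20. GSTU23 rose by 0.94 in CC-S (limma adjusted p = 0.0264) and had a log2 difference of 0.12 in CC-M; its call ended without any of 5 single arrays (CC-S replicate 3 or 4, VISUAL replicate 3, 4 or 5; adjusted p up to 0.0858). GSTU21 had differences of 0.43 and 0.18 and GSTU20 of -0.19 and -0.65 in CC-S and CC-M, and neither was called. GSTU25, also on chromosome 1, is followed by GSTU26, with differences of 0.23 and 0.05 that were not called; GSTU24 on its other side was not analysed here. Next to MSRB8, MSRB9 fell by 0.95 in CC-S (adjusted p = 0.012) and had a difference of -0.54 in CC-M, called there without VISUAL replicate 3 (adjusted p = 0.0076); MSRB7 and MSRB2 in the same run were not analysed here.

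Counting 3 protein-coding genes on either side of each gene gave 30 neighbours outside the 7, of which 17 were measured. In CC-S 3 of them were called lower and 1 higher, beside 9.07% and 10.1% of all probe sets, and in CC-M 0 were called by limma, beside 5.15% lower and 6.49% higher. Their changes ran from -0.95 to 0.94 in CC-S and from -0.65 to 0.35 in CC-M, with medians of -0.07 and -0.01.

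**Figure D3:**
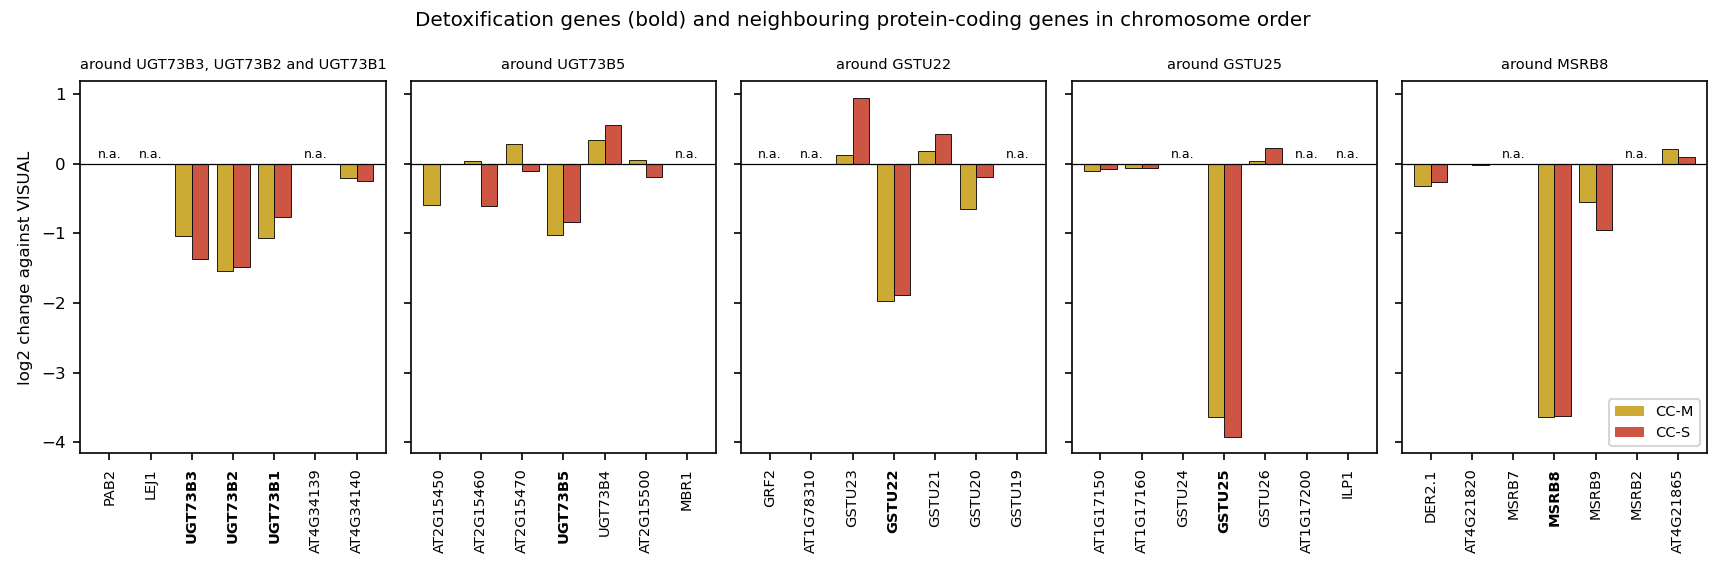
Log2 change against VISUAL (vertical axis, bars from 0) in CC-M and CC-S for the 7 genes, in bold, and their nearest protein-coding genes in chromosome order; n.a. marks a gene that was not analysed here. The 3 UGT73B genes of chromosome 4 are low together, while GSTU22, GSTU25 and MSRB8 stand below relatives next to them.

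Of 9 further UGT73 genes 8 were measured: 2 were called lower in CC-S and 1 in CC-M, beside 9.07% and 5.15% of all probe sets, with medians of -0.34 and -0.11. UGT73D1 fell by 1.16 in CC-S and by 1.15 in CC-M (limma adjusted p = 0.00244 and 0.0048), with no overlap with VISUAL. UGT73C6, known to glycosylate flavonols and brassinosteroids, fell by 0.92 in CC-S (adjusted p = 0.0412), a call that ended without any of 7 single arrays (all but CC-S replicate 3 and VISUAL replicate 3; adjusted p up to 0.118). From the same list AT2G36780, AT2G36770 and UGT73C1 had differences of -1.17, -0.39 and -0.29 in CC-S that were not called; AT2G36780 was called without VISUAL replicate 3, in CC-S (limma adjusted p = 0.007) and in CC-M (0.0313).

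Of 27 other tau class glutathione transferases 9 were measured. GSTU23 was the 1 call in CC-S, upward, where 10.1% of probe sets were called higher. In CC-M none was called by limma. There GSTU16 at 0.37 and GSTU20 at -0.65 had an unadjusted limma p under 0.05, as had 9274 of 38408 probe sets. The medians of the 9 genes were 0.17 in CC-S and 0.18 in CC-M. GSTU16 and GSTU18 had differences of 0.39 and -0.42 in CC-S that were not called. Of 24 genes of the other classes 4 were measured, and 1 was called lower in CC-M, beside 5.15% of all probe sets. This was GSTF3, of the phi class, which fell by 1.41 in CC-M (limma adjusted p = 0.0204) and had a difference of -0.71 in CC-S. Its CC-M call ended without CC-M replicate 4 or 5 or VISUAL replicate 3 (adjusted p up to 0.073). GSTF4, GSTL3 and ATGSTF13 had CC-S differences of -0.19, -0.06 and -0.01.

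Of 13 other methionine sulfoxide reductases 6 were measured. All 6 had negative differences in CC-S, from -0.95 to -0.07, and 5 had them in CC-M. The median was -0.23 in both, beside 0.02 for all probe sets. MSRB9 was the 1 called lower in CC-S and MSRB4 the 1 in CC-M, beside 9.07% and 5.15% of all probe sets. MSRB4 was called in CC-M, at -0.94 (limma adjusted p = 0.0367), with -0.78 in CC-S (adjusted p = 0.0521); the CC-M call ended without any of 7 single arrays (each VISUAL and CC-M array and CC-S replicate 4; adjusted p up to 0.123), and in CC-S it was called in 5 of 17 alternative settings, among them median centring, quantile normalization and leaving out CC-S replicate 5 (adjusted p from 0.0242 to 0.148 over all settings). The side of the threshold on which MSRB4 falls thus depends on the setting in both groups. MSRA5, MSRB5 and MSRB6 had CC-S differences of -0.20, -0.26 and -0.18.

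Of 20 genes listed for their response to xenobiotics and reactive oxylipins, 4 were measured, and they did not move together. AER, an alkenal reductase that acts on reactive carbonyls, fell by 0.74 in CC-S (limma adjusted p = 0.02) and had a difference of -0.32 in CC-M. In CC-S it was the 1 called lower, beside 9.07% of probe sets. AT2G04050, which that list holds, rose by 0.89 in CC-S and 0.97 in CC-M (adjusted p = 0.0172 and 0.0191), beside 10.1% and 6.49% of probe sets called higher. Each of these calls ended without any of 4 single arrays (adjusted p up to 0.075 for AER without replicate 4 or 5 of CC-S or of VISUAL, and up to 0.0624 and 0.0711 for AT2G04050 without replicate 3 or 5 of VISUAL, replicate 4 or 5 of CC-S or replicate 3 or 4 of CC-M). ALDH7B4, a stress-responsive aldehyde dehydrogenase, and AT2G04070 had CC-S differences of 0.21 and 0.39. None of 11 genes for TGA factors and their partner SCL14 and none of 15 ABC transporter genes of the ABCC type was analysed here.

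A list of the mitochondrial dysfunction response, a stress programme that overlaps with detoxification, held more calls. Of its 22 genes 7 were measured; 5 were called lower in CC-S and 3 in CC-M, beside 9.07% and 5.15% of probe sets, and the median change was -1.37 in CC-S and -0.58 in CC-M. AT2G21640 had mean log2 signals of 9.29 ± 0.19 in VISUAL, 7.91 ± 0.20 in CC-M and 6.41 ± 0.54 in CC-S (SD, n = 3), a fall of 2.61-fold and 7.34-fold (limma adjusted p = 0.00907 and 0.000151). AT5G51440 fell by 1.57 and 2.52 in CC-M and CC-S (adjusted p = 0.00217 and 0.000121). AT5G64400 fell by 0.54 and 0.71 in the same order. NDB4, an alternative NADH dehydrogenase of mitochondria, fell by 1.38 in CC-S (adjusted p = 0.00127) and had a difference of -0.58 in CC-M, called there without CC-S replicate 5 (0.041).

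The fifth call was AT5G09570, named after its value was seen. It fell by 1.37 in CC-S (limma adjusted p = 0.0148), a call that ended without CC-S replicate 3 or 4 (adjusted p up to 0.058). Between CC-S and CC-M, AT2G21640 differed by -1.49 and AT5G51440 by -0.95 (adjusted p = 0.0648 and 0.103); leaving out CC-S replicate 5 brought both past the threshold (adjusted p = 0.0095 and 0.0185), and likewise NDB4 (0.048). The differences of the 7 genes lay on both sides of 0, and that contrast between the lists was not tested.

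Glutaredoxins, which use glutathione to reduce disulfides, also held calls: 2 of 6 measured were called lower in CC-S and 2 in CC-M, beside 9.07% and 5.15% of all probe sets. GrxC5, a plastid glutaredoxin, fell by 1.29 in CC-S and 0.78 in CC-M (limma adjusted p = 0.000826 and 0.016), and GRXC2 fell by 0.65 and 0.60 (adjusted p = 0.0227 and 0.0464). In CC-M the call of GrxC5 ended without CC-M replicate 3 or 5 or VISUAL replicate 5 (adjusted p up to 0.0587) and that of GRXC2 without any single array but VISUAL replicate 3 (up to 0.146); in CC-S that of GRXC2 ended without CC-S replicate 4 or 5 (up to 0.0808). GRX480, known to bind TGA factors, had differences of -0.53 and -0.42 that were not called, and GRXC1 had 0.14 and 0.05.

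Lists of other stresses had few measured genes, so their calls say little. They stand beside 9.07% of probe sets called lower and 10.1% higher in CC-S, and 5.15% and 6.49% in CC-M. Both measured glutathione reductase genes, GR1 and GR, had differences within 0.18 of 0 and were not called by limma; without VISUAL replicate 4 GR1 was called higher in CC-M (adjusted p = 0.0241). None of 4 flavonoid genes was called, with UGT78D2, a flavonol glucosyltransferase gene, at -0.43 in CC-S and at -0.50 in CC-M, DFR at -0.10 and 0.20, and UGT78D1 at -0.02 and 0.13. In the senescence list WRKY6 rose by 0.30 in CC-S and 0.52 in CC-M (limma adjusted p = 0.0258 and 0.00409), SAG101 was at -0.23 and 0.03, and SAG29 at 0.83 and 0.89 with an SE of 1.25; the CC-S call of WRKY6 ended without any CC-S array or VISUAL replicate 3 or 5 (adjusted p up to 0.0777). BZIP60, a factor of the unfolded protein response, fell by 0.84 in CC-S (adjusted p = 0.00629), and BIP1, PDC2 and PDF1.2, of the heat and protein folding, low oxygen and jasmonate lists, were at -0.38, -0.29 and 0.37. None of the 19 genes of the salicylate and pathogen defence list was analysed here.

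**Figure D4:**
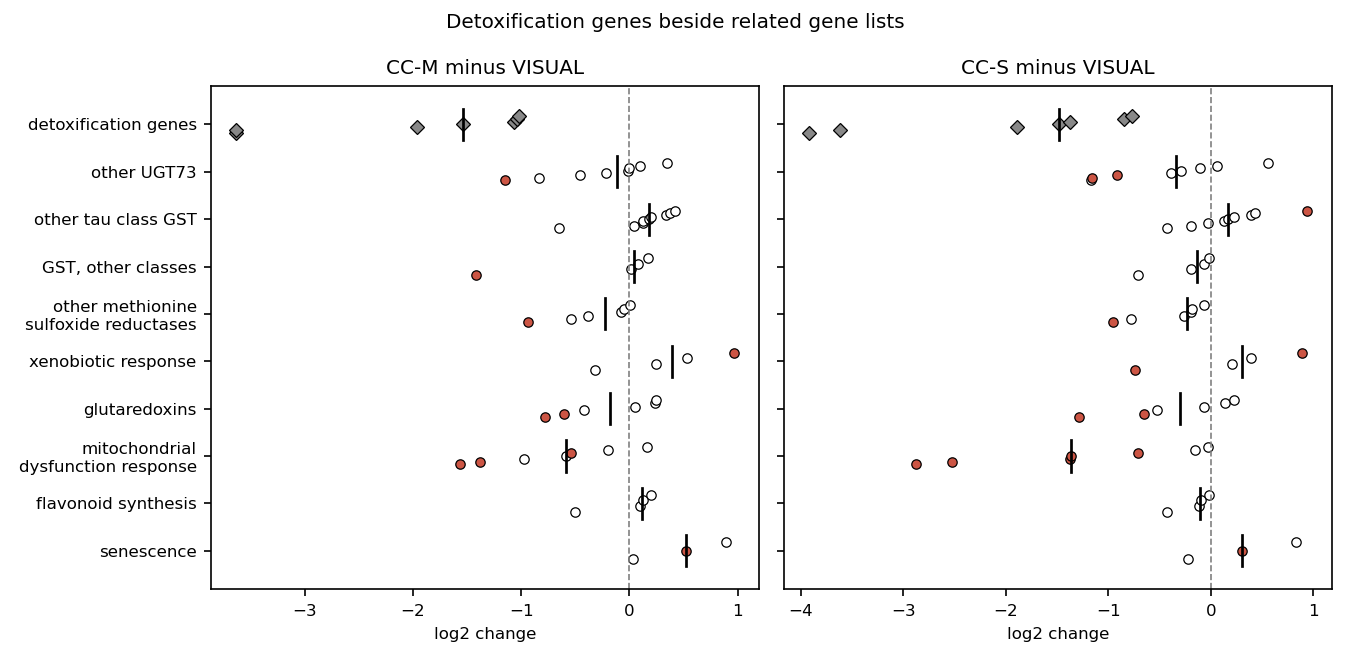
Log2 change against VISUAL (horizontal axis) of the 7 genes (grey diamonds, no test) and of each measured gene of 9 related lists (circles, filled where limma's adjusted p is under 0.05) in CC-M and CC-S; short vertical lines are medians. The mitochondrial dysfunction list has its median at -0.58 in CC-M and -1.37 in CC-S, and the medians of the 4 family lists lie within 0.34 of 0.

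The genes whose signal was most like the mean of the 7, each centred on its own mean, were found by Pearson's r over the 9 arrays. The 8 highest were AT3G57072 (r = 0.992), AT5G38200, AT3G19370, AT3G27880, AT5G42830, AT5G60190, AT4G16190 and AT2G32730 (0.983). The arrays fall into separate groups, so r mostly restates the step between VISUAL and the rest and carries no p. AT5G42830 had a mean log2 signal of 10.6 ± 0.19 in VISUAL, 8.39 ± 0.22 in CC-M and 8.44 ± 0.14 in CC-S (SD, n = 3). AT4G16190, which was also the gene most like GSTU25 alone (r = 0.995), was at 10.9 ± 0.13 in VISUAL and lower by 1.87 in CC-M and by 2.00 in CC-S.

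The 8 genes were lower by 0.54 to 2.23 in CC-M and 0.57 to 2.18 in CC-S, and their differences between CC-S and CC-M lay between -0.13 and 0.08. Taken alone, MSRB8 was most like AT1G35710 (r = 0.991), GSTU22 like AT2G42490 (0.987), UGT73B2 like AT3G27880 (0.988), UGT73B3 like AT3G52360 (0.993), UGT73B1 like AT1G05575 (0.974) and UGT73B5 like AT5G15260 (0.948). Leaving out 1 array at a time kept 4 to 7 of the 8 genes among the highest 8, the fewest without CC-S replicate 3. The 7 genes themselves correlated with their own mean at 0.868 for UGT73B5 to 0.988 for GSTU25.

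**Figure D5:**
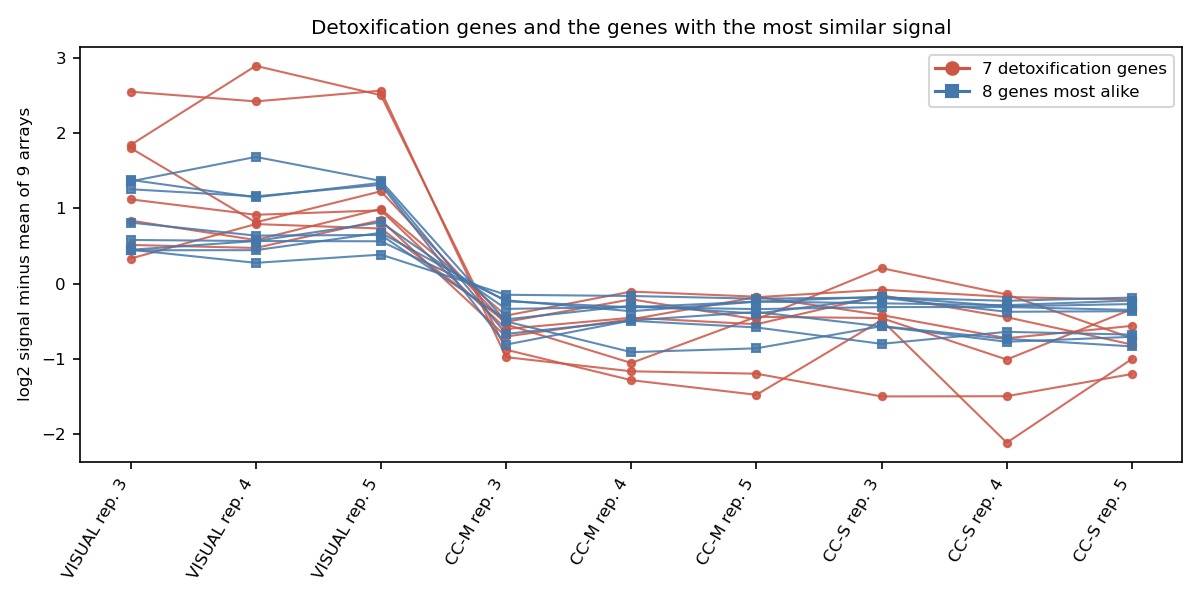
Log2 signal of each gene minus its mean over the 9 arrays (vertical axis) on each array (horizontal axis) for the 7 detoxification genes (red circles) and the 8 genes most like their mean (blue squares). All lines are highest on the 3 VISUAL arrays and lie lower on the 6 others, with MSRB8 on CC-S replicate 4 as the lowest point.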

How the data were processed

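The authors deposited 1 table of log2 signals, 1 column per array. They used Affymetrix Expression Console, per the submitters' processing notes; no version and no summary method are stated in the labels. Values were used as deposited. Probe sets were named through the platform annotation, updated by gene number from the RefSeq gene table of TAIR10.1: 16722 name 1 gene (16574 matched), 759 name several and 20927 are unnamed here. Each gene is read by its brightest single-gene probe set.

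The 3 comparisons were fitted on all 38408 probe sets and 9 arrays with limma 3.58.1 in R 4.3.3 (a mean per group, eBayes with an intensity trend, 2-sided, 6 residual and 2.65 prior degrees of freedom) and adjusted by Benjamini-Hochberg; a call is an adjusted p under 0.05. Tables were made with Python 3.11.15. On simulated data of 38408 probe sets the fit recovered 51 of 100 changes of 1 and 92 of 100 changes of 2 on the log2 scale for CC-S against VISUAL, with 14 false calls. Only these probe sets were changed, in CC-S alone, and the simulated noise was independent between probe sets. Far more probe sets were called in the real data, so these counts do not give the power of the real comparisons.

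The genes, the lists and the tests were chosen with earlier results of these data known. Named are the 7 genes; every called gene of the glycosyltransferase, glutathione transferase and methionine sulfoxide reductase lists, with up to 4 more of each by smallest p in CC-S; up to 4 by that p of each other list and up to 2 of each marker list; the 8 genes most alike and the 1 most like each gene. Chromosomal neighbours are named for their position, chosen after values were seen. Alternatives were median centring, quantile normalization, a filter on dim probe sets, no trend, a replicate block, each array left out, single-gene probe sets only, averaging all probe sets of a gene, and the 6 arrays compared alone. Probe sequences were not used here, so cross-reading between relatives was not tested.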

Additional observations from a re-analysis of the deposited data

How the results depend on the processing

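All 7 genes lay below VISUAL without overlap, so leaving out 1 array could not turn the sign of a change, and those settings are no support for it. Under 17 alternative settings the 7 genes, where tested, had negative changes against VISUAL in both groups, and no setting called any of them for CC-S minus CC-M. Their median change lay between -1.63 and -1.38 in CC-S, between -1.58 and -1.48 in CC-M and between -0.10 and 0.14 for CC-S minus CC-M when 1 array was left out. Without the dimmest 40% of probe sets, which removes GSTU22, the CC-M median was -1.30. Calls over all probe sets depend on how many are tested: with single-gene probe sets alone they numbered 3864 in CC-S, 2391 in CC-M and 179 between CC-S and CC-M, against 7365, 4470 and 8. Leaving out 1 array gave 5095 to 7043, 2450 to 4666 and 0 to 309 calls. Between CC-S and CC-M there were also 38 calls with median centring, 42 with quantile normalization, 310 without the dimmest 40%, 4 with the 6 arrays alone and 0 by limma without the intensity trend (4679 at an unadjusted p under 0.05); the cause was not tested. A replicate block gave 7365, 4479 and 10 calls. Among the named genes it called UGT73B4, AT2G36780, GSTF3 and FMA in CC-S and RCA in CC-M, and ended the calls of UGT73C6 in CC-S and of MSRB4 and GRXC2 in CC-M; without the trend the CC-M calls of MSRB4, GRXC2 and GUT2 and the CC-S call of WRKY6 also ended. Deviations of same-numbered arrays correlated at -0.033 to 0.121, and 2 of 9 such pairs exceeded 0.1, so the numbers were not taken as pairs. Precision rests on 3 arrays a group, and dim signals limit the folds of GSTU22, GSTU25 and MSRB8.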

Other observations

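Some genes ran opposite to the 7 detoxification genes over the 9 arrays; they were looked for after the values were seen, and r carries no p for the reason given above. The 5 lowest values of r with the mean of the 7 were those of AT1G30720 (-0.994), TAPX (-0.993), AT2G26690, AT5G25770 and AT5G63000 (-0.986). TAPX codes for the ascorbate peroxidase of the thylakoid membrane, which removes hydrogen peroxide in chloroplasts. Its mean log2 signal was 6.42 ± 0.019 in VISUAL, 7.11 ± 0.023 in CC-M and 7.19 ± 0.11 in CC-S (SD, n = 3), so it was higher by 0.69 and 0.77. AT1G30720 was higher by 2.44 in CC-M and 2.42 in CC-S, and AT2G26690, which the gene table also lists as NPF6.2 of the nitrate and peptide transporter family, by 1.88 and 2.05.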
